A study of Mus musculus with 16 samples.

Results

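The mouse mitochondrial genome (mtDNA) is a small circular DNA in the organelle that carries its own genes. They were taken as every symbol in the deposited count tables that starts with mt-, which gave 37 of the 55367 genes listed: 13 protein-coding genes, 2 ribosomal RNA genes and 22 transfer RNA genes. RNA sequencing was done on mIMCD3 cells, a mouse line from the inner medullary collecting duct of the kidney. Wild-type (WT) cells received DMSO, the vehicle, or 10 µM sulforaphane (SFN), an activator of the transcription factor Nrf2, for 5 h and were then kept under isosmotic conditions or placed under hyperosmotic stress at 600 mOsm for 1 h or 6 h. Nrf2-/- cells received SFN and were kept under isosmotic conditions or stressed for 1 h. Each of these 8 groups held 2 libraries, 16 in all. The Nrf2-/- cells were made by lentiviral Cas9 and guide RNA with drug selection, no isolation of clones was described, and no Nrf2-/- cells without SFN or at 6 h were sequenced, so that an effect of Nrf2 loss and any other difference between these 2 cell stocks cannot be told apart.

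Both strands of mtDNA are transcribed from end to end by the polymerase Polrmt with the factors Tfam and Tfb2m, and the long transcripts are cut at the tRNAs into separate RNAs. The mRNAs receive short poly(A) tails and are stabilised by Lrpprc. They encode core subunits of the respiratory chain, which in the kidney tubule supplies the ATP for solute transport, while the other subunits of the chain and all proteins that copy, transcribe and process mtDNA are encoded in the nucleus.

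In mm10 coordinates of the GENCODE M21 annotation the 37 genes covered 15441 bp of chrM when their lengths were added. The protein genes were 204 to 1824 bp long, the rRNA genes 955 and 1582 bp and the tRNA genes 59 to 75 bp. In all, 28 genes lay on the plus strand and 9 on the minus strand, the latter being mt-Nd6 and 8 tRNA genes. Neighbouring genes overlapped at 9 junctions. The longest was the 43 bp shared by mt-Atp8 and mt-Atp6, which encode subunits of ATP synthase. It was followed by 14 bp between mt-Nd5 and mt-Nd6, on opposite strands, and by 7 bp between mt-Nd4l and mt-Nd4, all 4 of which encode complex I subunits. Both same-strand junctions are shown on the plus strand with 20 bases on each side and the bases shared by both genes in capitals, at chrM:7907-7989 and chrM:10147-10193, because each pair is transcribed as 1 mRNA and reads there belong to 2 members at once.
mt-Atp8 and mt-Atp6: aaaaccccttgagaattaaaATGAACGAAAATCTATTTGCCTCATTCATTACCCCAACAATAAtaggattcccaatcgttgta
mt-Nd4l and mt-Nd4: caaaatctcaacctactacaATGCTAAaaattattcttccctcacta

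All 37 mtDNA genes were listed at 0 counts in all 16 libraries. This held for the 7 subunits of complex I (mt-Nd1, mt-Nd2, mt-Nd3, mt-Nd4, mt-Nd4l, mt-Nd5 and mt-Nd6), for mt-Cytb of complex III, for mt-Co1, mt-Co2 and mt-Co3 of complex IV and for mt-Atp6 and mt-Atp8 of complex V. It also held for the rRNAs mt-Rnr1 and mt-Rnr2 of the mitochondrial ribosome and for the 22 tRNAs that read its code. Between 34484296 and 50774875 counts were assigned to genes in a library. A total of 0 counts for the members allows a share of up to 8.70e-06% in the library with the fewest counts and 5.91e-06% in the one with the most, taking 3 counts as the upper limit of a count of 0. These limits cover counting error in the deposited tables only.

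The value of 0 was the same in DMSO-treated and SFN-treated WT cells, under isosmotic conditions and at 1 h and 6 h of hyperosmotic stress, and in Nrf2-/- cells. The members' share of the counts, their order by level, the ratio of rRNA to mRNA, the ratio of mt-Nd6 to the mRNAs of the other strand and the ratio of tRNA to mRNA could therefore not be compared between any groups. In the fit across all genes, 19509 genes passed the filter on low counts and 0 of the 37 members were among them. No statement on a rise or fall of a mitochondrial transcript under SFN, hyperosmotic stress or loss of Nrf2 can be made from these counts.

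Among the 53292 listed genes matched to the annotation, no gene of chrM had a count, whereas each of the other 21 chromosomes had genes with at least 1 count, from 3.25% of its genes on chromosome Y to 80.3% on chromosome 11. Across the genome, 20416 of the 55367 genes were listed at 0 in every library. The nuclear-encoded partners of the members were counted in these libraries. Of 81 listed subunits of complexes I to V encoded in the nucleus, 79 had counts above 0 in every library, and together they took 0.577% to 1.19% of a library's counts. The study's methods describe removal of mtDNA reads for its chromatin libraries, which were aligned with Bowtie2, the aligner that the submitters' notes also list for these RNA libraries. Whether chrM reads were left out or removed here was not given in the sources used here, so that a listed 0 gives no level for a mitochondrial transcript in these cells.

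**Figure D1:**
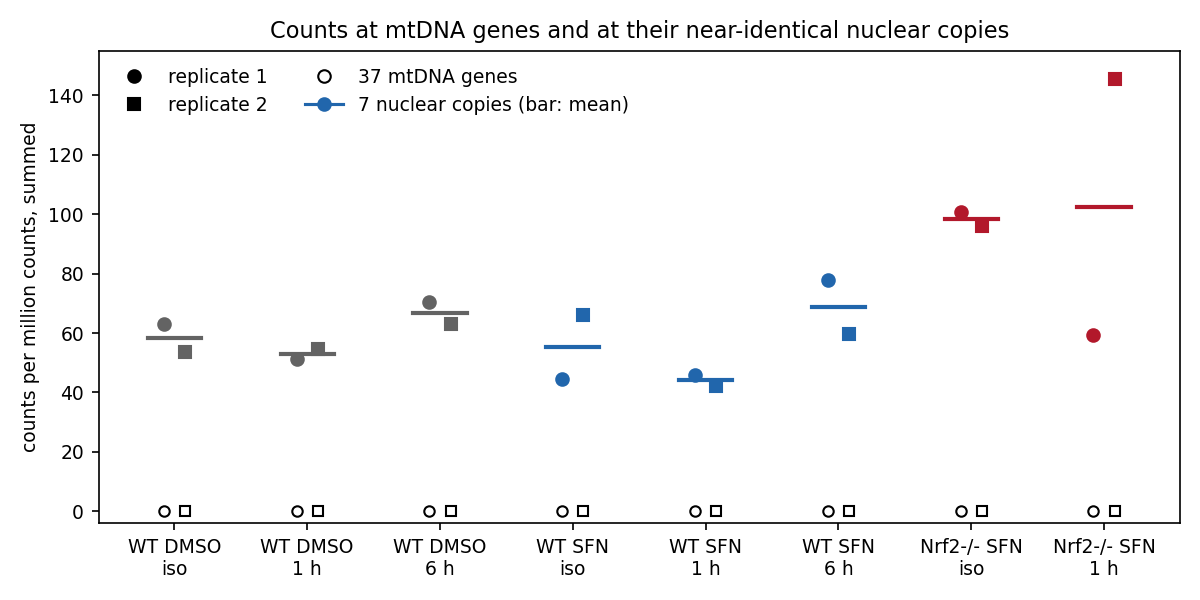
Summed CPM (counts scaled by the library's total count, vertical axis) in each of the 16 libraries, by group, for the 37 mtDNA genes (open symbols) and for their 7 near-identical nuclear copies (filled symbols; the bar is the mean of 2 libraries; iso, isosmotic). The members sit at 0 throughout, while the copies sit between 42.1 and 145 CPM.

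Reads that carry mtDNA sequence were nevertheless present in the tables, under other names. Stretches of mtDNA have been inserted into the nuclear chromosomes in the course of evolution, and many are annotated as pseudogenes. Transcripts of annotated mouse pseudogenes were aligned to the members, and those with at least 80% identity over at least 100 bp were kept as nuclear copies. They were looked for after the members' values had been seen. This gave 26 listed copies, which covered parts of all 13 protein genes, and none for the rRNA or tRNA genes. Copies of rRNA or tRNA genes that are not annotated as genes could not be searched for.

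The copies differed in how closely they matched mtDNA, and 7 of the 26 had an identity of 99% or more. These 7 lay side by side on the minus strand of chromosome 1, at chr1:24611535-24616197, a span of 4663 bp, in the same order as their counterparts in mtDNA. They were Gm29216 (counterpart mt-Co1, 483 bp aligned, 99.8% identity), Gm28661 (mt-Co2, 681 bp, 100%), Gm10925 (mt-Atp6, 678 bp, 100%), Gm28437 (mt-Co3, 783 bp, 100%), Gm28438 (mt-Nd3, 345 bp, 99.7%), Gm10222 (mt-Nd4l, 294 bp, 100%) and Gm28439 (mt-Nd4, 876 bp, 100%). Gm29216 matched the last part of mt-Co1 only, 31.3% of the member, and Gm28439 matched 63.6% of mt-Nd4. The others matched 98.99% to 99.87% of their counterpart. No annotated copy at this identity was found for mt-Nd1, mt-Nd2, mt-Nd5, mt-Nd6, mt-Cytb or mt-Atp8.

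The first 60 bases of mt-Atp6 and Gm10925 are shown as the example without a mismatch, and the first 33 bases of mt-Nd3 and Gm28438 as the example with the only mismatch of that pair, T3C, in capitals. Positions count from 1 at the 5′ end of the member, and the base of the member stands first. All are read 5′ to 3′ from the annotated transcripts of GENCODE M21.
mt-Atp6: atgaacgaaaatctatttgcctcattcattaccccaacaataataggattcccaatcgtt
Gm10925: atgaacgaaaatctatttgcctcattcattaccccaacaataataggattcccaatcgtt
mt-Nd3: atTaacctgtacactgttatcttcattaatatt
Gm28438: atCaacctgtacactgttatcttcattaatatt

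Over the aligned part, Gm29216 differed from mt-Co1 only by A1066T. A read from mt-Atp6 and one from Gm10925 hold the same letters, so that counts listed for the copy can come from an mtDNA transcript, from the nuclear copy or from both, and these sources cannot be told apart in the tables.

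The 7 near-identical copies carried 41517 counts over the 16 libraries. Gm28661 (mt-Co2) had 495 to 1714 counts per library with a median of 923.5, and Gm10925 (mt-Atp6) had 481 to 1420 with a median of 663.5. Gm29216 (mt-Co1) had 183 to 634 counts, Gm28437 (mt-Co3) 140 to 1039 and Gm28439 (mt-Nd4) 60 to 525. The shortest, Gm28438 (mt-Nd3) and Gm10222 (mt-Nd4l), had 29 to 100 and 18 to 130 counts. Per length, the mean level over the 16 libraries was 34.8 CPM (counts scaled by the library's total count) per kb for Gm28661, 29.4 for Gm10925, 17.4 for Gm29216, 11.2 for Gm28437, 5.09 for Gm28439, 4.90 for Gm28438 and 4.16 for Gm10222. Copies of the complex IV and ATP synthase genes thus lay above those of the complex I genes on this scale.

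Levels of the 26 copies went with their identity to mtDNA. The 7 at 99% or more lay between 4.16 and 34.8 CPM per kb, the 4 between 95% and 99% between 0.0318 and 1.58, and the 15 under 95% between 0 and 0.216, with 11 of the 15 at 0 in every library. These are values of one annotation and one alignment procedure and carry no test. Copies of the same member differed as well. For mt-Co1, the full-length copy Gm13340 at chr2:22588103-22589647, with 37 mismatches and 97.6% identity, stood at 1.58 CPM per kb beside 17.4 for Gm29216. For mt-Co2, Gm13341 with 95.9% identity stood at 0.364 beside 34.8 for Gm28661.

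**Figure D2:**
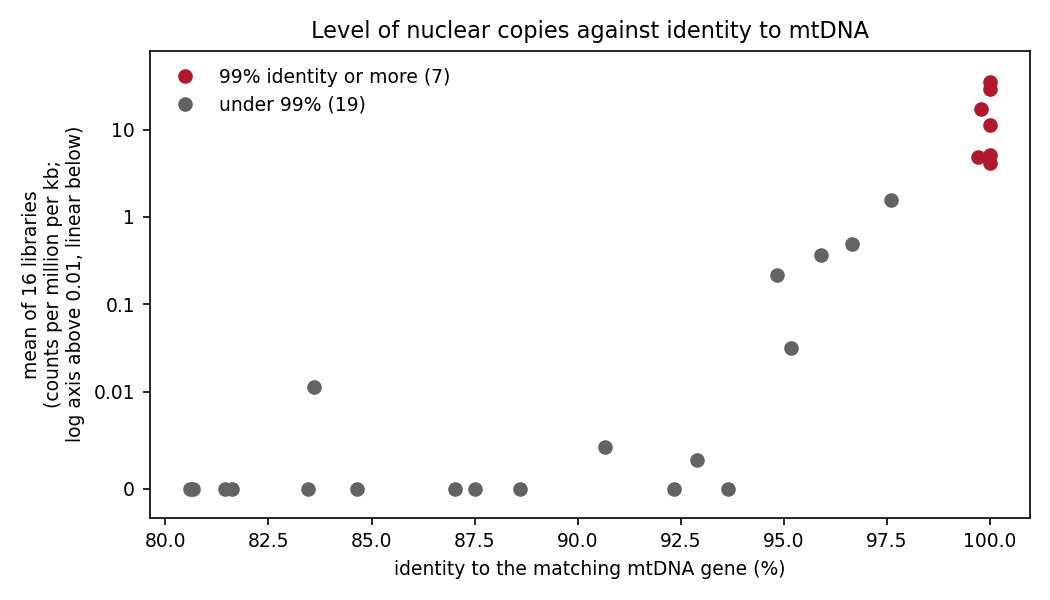
Mean level over 16 libraries in CPM per kb (vertical axis, logarithmic above 0.01 and linear below) against the identity of each of the 26 nuclear copies to its mtDNA gene (horizontal axis, percent). The 7 copies at 99% identity or more stand above all 19 others, which reach 1.58 at most.

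Few other genes are annotated around the block on chromosome 1. The processed pseudogene Tubb4b-ps2, 16112 bp away, had 0 to 39 counts per library, and the collagen gene Col19a1, 24063 bp away, had 0 to 4. The nearest gene with many counts was Lmbrd1, which encodes a lysosomal membrane protein, at 62433 bp and on the other strand, with 1216 to 2462 counts. Whether the counting used strand was not stated in the sources used here.

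In the WT groups the 7 copies together took 0.00421% to 0.00778% of a library's counts. In the isosmotic Nrf2-/- libraries they took 0.0101% and 0.00959%, and in the Nrf2-/- libraries at 1 h 0.00592% and 0.0145%. The Nrf2-/- pair at 1 h was thus spread more widely than any WT pair: replicate 2 had the highest share of the 16 libraries, while replicate 1 lay within the WT range. Between the 4 Nrf2-/- and the 4 SFN-treated WT libraries of the same conditions, the means were 0.01003% ± 0.0035 and 0.00497% ± 0.0011 (SD, n = 4 each), a ratio of 2.02 (exact two-sided permutation test, p = 0.0571, adjusted p = 0.229 over 4 comparisons; the smallest p this design allows is 0.0286). Within isosmotic conditions and within 1 h, both Nrf2-/- libraries lay above both WT libraries. Across the 2 conditions the values overlapped, since replicate 1 of the Nrf2-/- cells at 1 h, at 0.00592%, was below replicate 2 of the isosmotic WT cells, at 0.00661%. The summed level of 80 nuclear-encoded respiratory chain subunits set the same libraries apart from their partners: it was 10695 and 6080 CPM after TMM scaling in replicates 1 and 2 of the Nrf2-/- cells at 1 h, and 9868 and 8258 in replicates 1 and 2 of the isosmotic WT cells. Replicate 2 had the lower sum and the higher share of the copies in both pairs. In each of the other groups as well, the library with the lower sum had the higher share. The isosmotic Nrf2-/- libraries, with their higher shares, had sums of 7132 and 7304. Between the WT groups the order did not hold. WT libraries at 6 h had sums of 10672 to 11989 and shares of 0.00595% to 0.00778%. Those at 1 h had lower sums, 9967 to 10216, and also lower shares, 0.00421% to 0.00548%. What lies behind the order within the pairs was not tested.

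The other 3 comparisons of the share gave smaller differences. At 1 h of hyperosmotic stress the mean in WT cells was 0.00485% ± 0.00056 against 0.00569% ± 0.00097 under isosmotic conditions (SD, n = 4 each, exact permutation p = 0.2, adjusted p = 0.267). At 6 h it was 0.00677% ± 0.00081 (SD, n = 4, exact permutation p = 0.171 against isosmotic, adjusted p = 0.267). SFN-treated and DMSO-treated WT cells had means of 0.00560% ± 0.0014 and 0.00594% ± 0.00074 (SD, n = 6 each, exact permutation p = 0.610, adjusted p = 0.610). None of the 3 passed the permutation test.

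The copies were then read gene by gene from the fit across all 19509 genes (edgeR's quasi-likelihood test on all 16 libraries, with Benjamini-Hochberg adjustment over all genes tested and a threshold of 0.05). All 7 passed the filter on low counts. In isosmotic SFN-treated cells 3 of the 7 were higher in Nrf2-/- than in WT cells and none lower, where 34.1% of all genes tested were called, 15.7% of all as higher. Gm10925 (mt-Atp6) stood at 32.0 and 30.4 CPM in the Nrf2-/- libraries and at 13.8 and 13.2 in the WT libraries (log2 fold change 1.26, SE 0.28, adjusted p = 0.00292). Gm28439 (mt-Nd4) stood at 10.8 and 10.2 against 2.69 and 3.21 (log2 fold change 1.87, adjusted p = 0.0264). Gm10222 (mt-Nd4l) stood at 2.20 and 2.20 against 0.687 and 1.06 (log2 fold change 1.36, adjusted p = 0.0432). The Nrf2-/- and WT values of these 3 copies did not overlap, which adds no support, since the 3 were picked by the test on the same libraries. Gm28661 (mt-Co2) missed the threshold, with 33.8 and 30.3 against 14.2 and 22.8 CPM (log2 fold change 0.84, SE 0.33, adjusted p = 0.0659). Gm28437 (mt-Co3) was split among the WT libraries, at 4.89 and 18.9, around 11.1 and 9.85 in the Nrf2-/- libraries. Gm10925 was called without any 1 of the 4 libraries, while the number of copies called fell to 1 without either Nrf2-/- library or without WT replicate 1, and to 2 without WT replicate 2.

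At 1 h of hyperosmotic stress 5 of the 7 copies were higher in Nrf2-/- than in WT cells with SFN and none lower, where 31.5% of all genes tested were called, 15.3% of all as higher. The log2 fold changes were 2.07 for Gm28439 (mt-Nd4), 1.87 for Gm10222 (mt-Nd4l), 1.24 for Gm10925 (mt-Atp6), 1.20 for Gm28661 (mt-Co2) and 1.12 for Gm28438 (mt-Nd3), with adjusted p between 0.00373 and 0.0324. The larger values rested on 1 library. Gm28439 stood at 2.18 CPM in replicate 1 and 14.4 in replicate 2 of the Nrf2-/- cells, against 2.45 and 1.84 in WT cells, so that the groups overlapped. Gm10925 did not overlap, at 18.5 and 38.9 against 13.1 and 13.1. Without replicate 2 of the Nrf2-/- cells at 1 h, only Gm10925 of the 7 was still called (log2 fold change 0.57, adjusted p = 0.0214), and Gm28439 gave a log2 fold change of 0.10. Without either WT library 2 of the 7 were called, without replicate 1 of the Nrf2-/- cells 6, and with only the 4 libraries compared in the fit 0. The difference between the 1 h responses of Nrf2-/- and WT cells passed the test for 0 of the 7 copies (edgeR; 0 at an unadjusted p under 0.05 and 0 by DESeq2; 0.123% of all genes called).

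**Figure D3:**
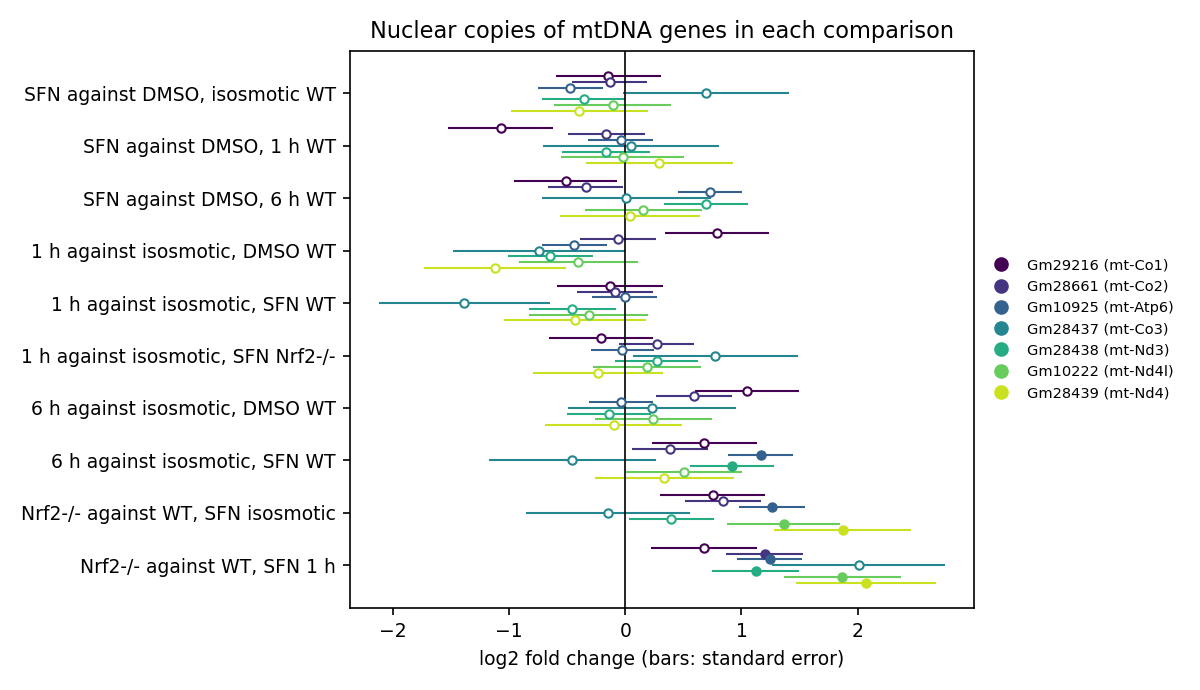
Log2 fold change (horizontal axis; bars are the standard error) of the 7 near-identical nuclear copies in each of 10 comparisons, with the matching mtDNA gene in brackets; filled points passed an adjusted p of 0.05 in edgeR's quasi-likelihood test. Filled points appear on the right in the Nrf2-/- against WT comparisons (3 and 5 copies) and at 6 h in SFN-treated cells (2 copies).

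Under 6 h of hyperosmotic stress 2 of the 7 copies were higher than under isosmotic conditions in SFN-treated WT cells, where 47.6% of all genes tested were called, 24.7% of all as higher. Gm10925 (mt-Atp6) went from 13.8 and 13.2 to 31.2 and 19.96 CPM (log2 fold change 1.16, SE 0.28, adjusted p = 0.00356), and Gm28438 (mt-Nd3) from 1.52 and 1.46 to 1.96 and 2.82 (log2 fold change 0.92, adjusted p = 0.0479). Neither pair of groups overlapped, which adds no support, since both copies were picked by the test on the same libraries. In DMSO-treated cells 0 of the 7 were called at 6 h by edgeR (1 at an unadjusted p under 0.05, 1 by DESeq2; 45.9% of all genes called), and Gm10925 stood at 20.1 and 16.2 under isosmotic conditions and 14.7 and 16.4 at 6 h. The difference between the 6 h changes of SFN-treated and DMSO-treated cells was 1.20 on the log2 scale for Gm10925 and did not pass the test (edgeR, adjusted p = 0.289; 0.759% of all genes called for this difference, and 0.559% for that at 1 h, where 0 of the 7 copies passed as well, with 0 at an unadjusted p under 0.05 and 0 by DESeq2). Without replicate 1 of the SFN-treated cells at 6 h neither copy was called, and without any 1 of the other 3 libraries 1 of the 7 was.

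At 1 h against isosmotic conditions 0 of the 7 copies were called by edgeR in DMSO-treated WT, SFN-treated WT and SFN-treated Nrf2-/- cells, where 11.2%, 9.52% and 7.17% of all genes were called. The count at an unadjusted p under 0.05 was 0 in each, and DESeq2 called 0 in each. SFN against DMSO gave 0 of 7 under isosmotic conditions, at 1 h and at 6 h (edgeR; 0, 1 and 1 at an unadjusted p under 0.05; 0 in each by DESeq2), where 2.84%, 0.0923% and 0.041% of all genes were called.

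Of the 19 less similar copies only 3 had enough counts for the test. Gm13340, the full-length copy of mt-Co1, had 59 to 133 counts per library and was higher at 6 h in DMSO-treated and in SFN-treated WT cells (log2 fold changes 0.88 and 0.93, adjusted p = 0.0458 and 0.0375). Its call was kept in 7 and 8 of 12 alternatives, with adjusted p up to 0.193 and 0.172. Gm13339 (mt-Nd2, 96.7% identity, 1 to 24 counts) was higher in Nrf2-/- cells at 1 h, with a log2 fold change of 3.33 from few counts (SE 1.09, adjusted p = 0.0305, and 0.0281 to 0.148 over its alternatives). Under isosmotic conditions the log2 fold change of Gm13339 between Nrf2-/- and WT cells was 0.03. From isosmotic conditions to 1 h it was -3.31 in SFN-treated WT cells (edgeR, adjusted p = 0.0710) and -0.01 in Nrf2-/- cells. Gm13341 (mt-Co2, 95.9% identity, 3 to 27 counts) passed the test in none of the 6 h and Nrf2-/- comparisons.

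The nuclear genes that transcribe mtDNA and process its RNA had counts, and 65 of 67 in 3 lists were tested: 23 of transcription and replication, 32 of RNA processing and decay and 10 nuclear regulators of mitochondrial biogenesis. At 6 h of hyperosmotic stress 13 of the 65 were higher and 31 lower in DMSO-treated cells, and 11 were higher and 31 lower in SFN-treated cells (67.7% and 64.6% called, against 45.9% and 47.6% of all genes). Of all genes, 23.9% were higher and 22% lower in DMSO-treated cells and 24.7% and 22.9% in SFN-treated cells. With at least 10 counts required in every library, 41 and 42 of 64 list genes were called, against 6232 and 6461 of 12211 genes, a narrower gap. Of the 23 transcription and replication genes 13 were lower in each treatment, 12 of them in both, with a median log2 fold change of -0.42 in DMSO-treated and -0.48 in SFN-treated cells against 0.05 and 0.09 for all genes. Of the 32 RNA processing genes 17 were lower in each treatment, 15 of them in both. Of the 10 regulators the same 6 were higher and the same 1 lower in both.

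Tfb1m, an rRNA methyltransferase of the mitochondrial ribosome, fell from 5.60 and 4.97 to 1.39 and 1.17 CPM after TMM scaling in DMSO-treated cells, and from 6.27 and 5.89 to 1.38 and 1.74 in SFN-treated cells (log2 fold changes -2.04 and -1.96, adjusted p = 3.19e-06 and 3.58e-06). Tfam, which packages mtDNA and starts its transcription, fell from 75.9 and 78.8 to 52.9 and 56.9 in DMSO-treated cells (log2 fold change -0.50, adjusted p = 0.000462) and by a similar size in SFN-treated cells (log2 fold change -0.45, adjusted p = 0.000894). Nsun4, an rRNA methyltransferase, was among the genes that moved farthest in SFN-treated cells (log2 fold change -1.65, adjusted p = 3.17e-05), and Mterf1b, a transcription termination factor with a near-identical paralogue, in DMSO-treated cells (log2 fold change -2.13, adjusted p = 0.00619). Ppargc1a, the coactivator of mitochondrial biogenesis, rose from 1.60 and 1.53 to 6.46 and 7.16 in DMSO-treated cells and from 2.12 and 1.20 to 8.43 and 7.73 in SFN-treated cells (log2 fold changes 2.12 and 2.30, adjusted p = 4.25e-05 and 1.93e-05). The groups did not overlap in any of the values given, which adds no support, since these genes had been called on the same libraries. Polrmt, the polymerase, had log2 fold changes of 0.10 and -0.11 and Lrpprc of 0.38 and 0.23, and neither passed the test (adjusted p = 0.520, 0.446, 0.0878 and 0.301).

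**Figure D4:**
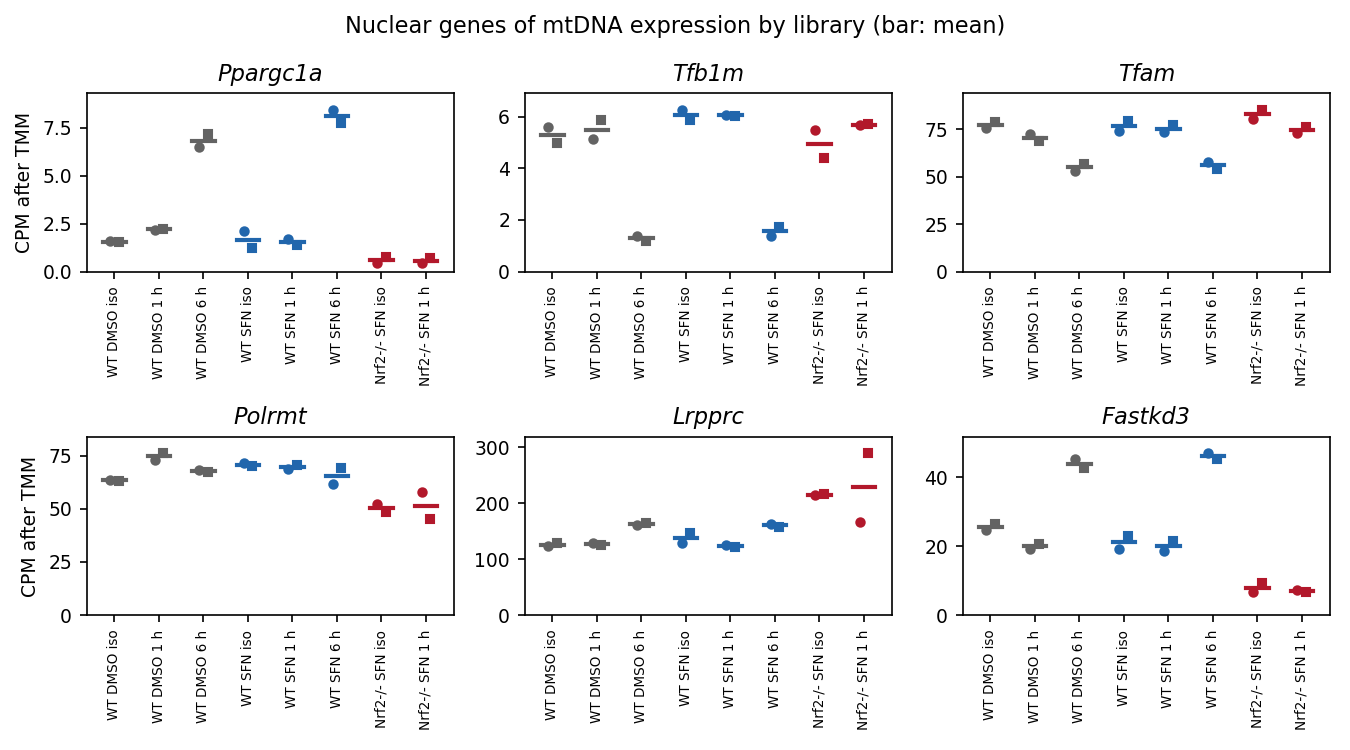
Level of 6 nuclear genes of mtDNA expression in CPM after TMM scaling (vertical axes, from 0) in each of the 16 libraries by group; circles are replicate 1, squares replicate 2 and bars the mean. Ppargc1a was higher and Tfb1m and Tfam lower at 6 h, and Polrmt and Fastkd3 lower in the Nrf2-/- cells.

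Between Nrf2-/- and WT cells with SFN, 12 of the 65 were higher and 13 lower under isosmotic conditions and 17 were higher and 9 lower at 1 h. This was 38.5% and 40% called, against 34.1% and 31.5% of all genes, with 18.4% and 16.2% of all genes called as lower. With at least 10 counts required in every library, 26 of 64 list genes were called in each comparison. Of all genes, 5609 and 5214 of 12211 were then called, so that the share of the list was not above that of all genes. Polrmt stood at 52.1 and 48.7 in isosmotic Nrf2-/- libraries and at 71.5 and 70.1 in the WT libraries (log2 fold change -0.49, adjusted p = 0.00359), and was lower at 1 h as well (log2 fold change -0.43, adjusted p = 0.00880). Lrpprc was higher in both (log2 fold changes 0.65 and 0.89, adjusted p = 0.00888 and 0.00111), with 167 and 289 in the 2 Nrf2-/- libraries at 1 h. Fastkd3, a mitochondrial RNA-binding protein, stood at 6.60 and 9.32 against 19.3 and 23.0 under isosmotic conditions (log2 fold change -1.41, adjusted p = 7.29e-06; -1.54 at 1 h, adjusted p = 4.02e-06). Ppargc1a was lower in both (log2 fold change -1.43 in each, adjusted p = 0.00416 and 0.00535), as were Trmu, which modifies mitochondrial tRNAs, under isosmotic conditions (log2 fold change -1.02, adjusted p = 0.000374) and the nuclease Dna2 at 1 h (log2 fold change -1.12, adjusted p = 5.91e-06). Tfam did not pass the test (log2 fold changes 0.11 and -0.02). At 1 h the number called was 15 or 16 of the 65 without 1 of the WT libraries and 3 with only the 4 libraries compared.

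In the comparisons of SFN with DMSO and of 1 h with isosmotic conditions, 0 to 3 of the 65 were called. SFN called 1 of 65 under isosmotic conditions (1.54%, against 2.84% of all genes), Myc, a regulator of growth and biogenesis, as lower (log2 fold change -0.72), and 0 at 1 h and 6 h (edgeR; 1 and 2 at an unadjusted p under 0.05; 0 and 0 by DESeq2), where 0.0923% and 0.041% of all genes were called. At 1 h 2 were called as lower in DMSO-treated cells, Top3a and Tbrg4 (3.08%, against 11.2% of all genes), and 3 in SFN-treated cells, Trmu and Fastk as lower and Myc as higher (4.62%, against 9.52%). In Nrf2-/- cells 0 were called at 1 h (edgeR; 7.17% of all genes called, 7 at an unadjusted p under 0.05; 1 by DESeq2), and 15 or 12 without replicate 1 or 2 of the stressed cells.

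The targeted gene and cell type markers were read in the same libraries. Nfe2l2, which encodes Nrf2, stood at 11.0 to 11.6 CPM after TMM scaling in the 4 Nrf2-/- libraries and at 64.0 to 149 in the 12 WT libraries. Nqo1 and Hmox1 were raised by SFN in isosmotic WT cells. Nqo1 was lower in Nrf2-/- cells, by log2 fold changes of -11.1 under isosmotic conditions and -4.95 at 1 h. Within Nrf2-/- cells Nqo1 was higher at 1 h (edgeR, log2 fold change 5.86, SE 1.24, adjusted p = 0.0120). This change started from an isosmotic level far below that of WT cells, so that its size is poorly fixed. Its difference from the 1 h change in WT cells did not pass the test (edgeR, adjusted p = 0.0973). Hmox1 was not called at 1 h within Nrf2-/- cells (-0.19, adjusted p = 0.730). The bearing of these values on the copies was not tested. Of 17 collecting duct and epithelial markers 13 had a median of at least 1 CPM, among them Epcam, Krt8 and Pax8, while the water channel Aqp2, which defines the principal cells of the duct, had at most 11 counts in a library. Markers of leukocytes moved with the 6 h groups: their sum over 6 genes was 17.9 to 19.8 CPM in WT libraries at 6 h and 2.55 to 5.55 in the other WT libraries, with Cd3e and Adgre1 at or near 0. The sum over 5 endothelial markers was 4.12 to 5.25 CPM at 6 h and 0.0496 to 0.785 in the other WT libraries, and that over 6 fibroblast markers 4.40 to 6.65 and 2.20 to 5.40. Their part in the 6 h results was not tested. Epithelial markers also moved with genotype. In isosmotic SFN-treated cells 4 of 15 tested were higher and 6 lower in Nrf2-/- than in WT cells, and at 1 h 4 were higher and 5 lower, with 2 of 3 fibroblast markers higher and 1 lower in each. Of all genes tested, 15.7% were called as higher and 18.4% as lower under isosmotic conditions, and 15.3% and 16.2% at 1 h. Under isosmotic conditions Pax2 stood at 27.5 and 26.2 against 139 and 146 CPM, Cdh16 at 20.1 and 20.95 against 202 and 199, and Krt7 at 974 and 833 against 203 and 158. Their part in the Nrf2-/- results for the copies and the nuclear genes was not tested.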

How the data were processed

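Whole-number read counts per gene were deposited by the authors, 1 table per library. The study's methods name Hisat2 and featureCounts with mm10, while the submitters' processing notes list Bowtie2, SAMtools and featureCounts. Counting of strand, multi-mapping reads and the annotation were not given in the sources used here. Lines without a gene name (5 in all) were left out. Libraries held 34484296 to 50774875 counts. Among genes with 1 to 10 counts, 58.0% to 68.5% of values were even, so that 1 count may not be 1 molecule. The extraction label names primary cells where the other labels name the cell line.

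Gene lists and members were chosen with earlier results of these data known, and the nuclear copies after the members' counts were seen, outside the rule for named genes. That rule named every member, the 3 nuclear list genes with the largest called change per comparison, and Polrmt, Tfam and Lrpprc. Positions come from GENCODE M21 (GRCm38, the assembly of mm10), and copies from BLAST+ 2.17.0. Tests used edgeR 4.0.16 in R 4.3.3 on all 16 libraries (TMM, filterByExpr, robust quasi-likelihood fit, no covariates), checked on simulated data, with DESeq2 1.42.0 as an alternative. Shares were compared by exact permutation of all libraries of a comparison, pooled over conditions or treatments. The shuffling ignored these, so that the SD and p of the shares include the spread between them. The labels name the 2 libraries of a group only as replicates, and the study's methods describe 2 biological replicates for RNA sequencing. The p-values measure the spread between these libraries. Samples with the same replicate number did not deviate together.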

Additional observations from a re-analysis of the deposited data

How the results depend on the processing

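With 0 counts in every library, the 37 members could not be called under any alternative, and 0 were. For the same reason the share of counts from mtDNA genes is 0 as a ratio to nuclear counts, over the 13 protein genes alone and without any 1 library. These outcomes were fixed by the counts and say nothing on the effect of the processing. The ratios among rRNA, tRNA and mRNA counts could not be computed, since both terms are 0. Adding the counts of the 7 nuclear copies to the members' share moved its differences to 0.00506 percentage points (Nrf2-/- against WT), -0.000836 (1 h), 0.00108 (6 h) and -0.000339 (SFN).

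The alternatives for the copies and the gene lists were chosen after the data were seen. Numbers of calls close to those of the main fit are not all listed below. The difference in the copies' share between Nrf2-/- and WT cells was 0.00356 to 0.00643 percentage points without 1 library each, passing an unadjusted p of 0.05 only without replicate 1 of Nrf2-/- cells at 1 h. The ranges were -0.00124 to -0.00053 at 1 h, 0.000677 to 0.00139 at 6 h and -0.000774 to -6.09e-05 for SFN.

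Of the 7 copies, leaving out 1 library each gave 0 to 1 calls for 1 h in DMSO-treated cells, 0 to 1 for 6 h in SFN-treated cells, 1 to 2 for Nrf2-/- against WT under isosmotic conditions, 1 to 6 at 1 h, 0 to 2 for 1 h in Nrf2-/- cells and 0 to 1 for its difference from WT. Without the filter on low counts, calls were 1 and 1 for SFN under isosmotic conditions and at 1 h. They were 3 and 2 for 1 h and 6 h in DMSO-treated cells and 1 and 2 in SFN-treated cells. For Nrf2-/- against WT they were 5 and 7 under isosmotic conditions and at 1 h, and for 1 h in Nrf2-/- cells 1. The differences of the SFN effect at 6 h and of the 1 h effect by genotype gave 1 and 1. With only the libraries compared, calls were 1 for SFN at 6 h. They were 3 and 2 for 1 h and 6 h in DMSO-treated cells and 3 for 6 h in SFN-treated cells. For Nrf2-/- against WT they were 5 and 0 under isosmotic conditions and at 1 h, and for the difference of the SFN effect at 6 h 1. With only the 12 WT libraries they were 1 for 1 h in DMSO-treated cells and 1 for that difference. At 6 h in DMSO-treated cells the count was 1 with at least 10 counts in every library and 1 with DESeq2. For Nrf2-/- against WT, DESeq2 gave 4 under isosmotic conditions and 6 at 1 h. The cause of these differences was not tested.

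Of the 65 nuclear list genes, leaving out 1 library each gave 0 to 1 calls for SFN under isosmotic conditions, 0 to 1 for 1 h in DMSO-treated and in SFN-treated cells, 0 to 15 for 1 h in Nrf2-/- cells, 15 to 21 for Nrf2-/- against WT under isosmotic conditions and 15 to 34 at 1 h. With only the libraries compared the counts were 2 and 3 for SFN under isosmotic conditions and at 1 h, 13 and 8 for 1 h in DMSO-treated and SFN-treated cells and 3 for Nrf2-/- against WT at 1 h. With only the 12 WT libraries they were 13 for SFN under isosmotic conditions and 16 and 11 for 1 h. DESeq2 gave 3, 6 and 1 for SFN under isosmotic conditions, 1 h in DMSO-treated cells and 1 h in Nrf2-/- cells. No filter gave 1 and 1 for 1 h in DMSO-treated and Nrf2-/- cells, and a minimum of 10 counts gave 1 for 1 h in DMSO-treated cells.

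With the replicate block the copies called were 2 at 6 h in SFN-treated cells, 2 and 5 for Nrf2-/- against WT under isosmotic conditions and at 1 h, and 0 elsewhere. Replicate differences correlated at -0.079 to 0.041, so the samples share only a number. Of 494 values for 43 named gene results, 411 stayed on the same side of the threshold, 77 missed it and 6 newly passed it. A change of direction with a call on either side occurred in 0. Some uncalled results did change sign, such as Polrmt at 6 h in SFN-treated cells (log2 fold change -0.21 to 0.02).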

Other observations

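Few nuclear-encoded subunits that assemble with the members were called at 6 h. Of 37 complex I subunits tested, 0 were higher and 2 lower in DMSO-treated cells and 0 were higher and 1 lower in SFN-treated cells, and of 15 complex IV subunits 2 were higher in each (edgeR, adjusted p of 0.05; 45.9% and 47.6% of all genes called). Between Nrf2-/- and WT cells with SFN, 6 of the 37 complex I subunits were lower under isosmotic conditions, and 6 were lower and 1 higher at 1 h. The lower calls were near the 18.4% and 16.2% of all genes called as lower. The medians of the subunits nevertheless lay below that of all genes. Under isosmotic conditions the median log2 fold changes were -0.41, -0.37, -0.54, -0.31 and -0.34 for complexes I to V, against -0.0009 for all genes. At 1 h they were -0.25 to -0.42, against -0.02. Medians of this size were not particular to genotype. SFN against DMSO in isosmotic WT cells gave -0.31, -0.08, -0.28, -0.41 and -0.34 for complexes I to V, with 0 subunits called. The 2 Nrf2-/- libraries at 1 h stood apart for these subunits, with Ndufs6 at 55.9 and 7.76 CPM after TMM scaling against 47.0 and 47.6 in WT cells.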
